A study of Drosophila melanogaster with 10 samples.

Results

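HP1a RNAi was set directly against Su(var)3-9 RNAi in the pericentromeric contact maps of Drosophila S2 cells, an established line of embryonic origin. The comparison used 4 of the 9 5C libraries with interaction scores, 2 of HP1a RNAi and 2 of Su(var)3-9 RNAi, chosen by their RNAi label alone. A further sample, labelled as an unprocessed control, makes 10 labelled samples and was not analysed here. HP1a RNAi cells received dsRNA against HP1a, Su(var)3-9 RNAi cells received dsRNA against Su(var)3-9, and both were kept for 3 days before fixation. The other 5 libraries, 2 of mock RNAi with dsRNA against GFP for the same 3 days and 3 of WT cells without dsRNA, served only as reference values. All libraries came from the same cell line, and the dsRNA acted on the whole culture. By the methods the RNAi experiment was repeated for the 5C replicates, and p-values here measure the spread between these libraries. The genes of HP1a and Su(var)3-9 lie outside the regions measured, so these scores give no check of either depletion, and contact scores hold no markers of the cell type. The paper checked both depletions by immunoblot and reports a large but incomplete decrease of each protein.

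Heterochromatin around the centromeres carries methylation of histone H3 at lysine 9. Su(var)3-9 is a histone methyltransferase that deposits this mark there, and HP1a binds the methylated residue through its chromodomain. HP1a molecules also bind each other and bind Su(var)3-9, and both proteins were found through mutations that suppress position effect variegation. Other H3K9 methyltransferases are known in the fly. The question of the comparison was which contacts behave alike after partial depletion of the reader and of the writer, and which differ.

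5C reports ligation between EcoRI fragments as an interaction score, here the log2 of observed over expected contact frequency for a pair of bins. Bins were 10 kb on the autosomes and 5 kb on chrX, with positions in dm3. A score of 0 was taken as missing, and the median of each library and arm was subtracted. A centred score above 0 is thus a higher ratio of observed to expected frequency than that of the middle contact of that arm. By the paper, the expected frequency depends on distance, so values by distance below are what remained after that correction. Of 40796 bin pairs among 603 bins, 23488 (57.6%) had a score in all 4 libraries. chr2R held 8558 of them, chrX 7860, chr2L 5105, chr3L 1272 and chr3R 693. The scores are not counts, so the depth of each library is unknown from them and no counting interval can be given. Smoothing made many neighbouring values identical, and the 23488 bin pairs held 15620 distinct sets of values.

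Su(var)3-9 RNAi replicate 2 stood apart. On chr3L, 90.5% of the bin pairs were scored 0 in it, against 6.01% in Su(var)3-9 RNAi replicate 1 and 6.57% and 6.84% in HP1a RNAi. Of its 1330 chr3L bin pairs with a score, 1300 had values that differed between the orders in which a pair is listed, and any nonzero values were averaged. Of the 1272 chr3L bin pairs left in all 4 libraries, 1260 included 1 of 8 bins between 22896370 and 22976370, and 155 of 163 chr3L bins rested on fewer than 20 bin pairs. Its median score before centring was also low on chr2L, at -2.47, against -0.49 in Su(var)3-9 RNAi replicate 1 and -0.56 and -0.28 in HP1a RNAi. Because of the missing scores, results on chr3L are given with their number of bin pairs, and again without Su(var)3-9 RNAi replicate 2.

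Over all arms together, the contact maps of both depletions resembled each other somewhat less than replicates of 1 depletion did. Across the 23488 bin pairs, Pearson's r was 0.66 between the HP1a RNAi replicates, 0.58 between the Su(var)3-9 RNAi replicates and from 0.488 to 0.547 between the depletions. HP1a RNAi libraries had r of 0.36 to 0.48 with mock RNAi and 0.40 to 0.50 with WT, and Su(var)3-9 RNAi libraries 0.09 to 0.26 and 0.18 to 0.34. On chr3R, HP1a RNAi had r of 0.42 to 0.63 with mock RNAi, beside 0.267 to 0.473 with Su(var)3-9 RNAi. Replicates there had r of 0.41 in HP1a RNAi and 0.39 in Su(var)3-9 RNAi, so they were no more alike than the depletions. On chr3L, over 1272 bin pairs, r between the depletions ran from 0.292 to 0.601, beside 0.55 within HP1a RNAi and 0.38 within Su(var)3-9 RNAi. The points share fragments through smoothing and libraries share the bias of their primers, so these values are descriptions. On chr2L the between-depletion r ran from 0.585 to 0.741, beside 0.77 within HP1a RNAi and 0.75 within Su(var)3-9 RNAi. On chrX it ran from 0.384 to 0.486, beside 0.61 and 0.48. On the level of bins, each the mean of its bin pairs, chr2L was again the most alike, with r of 0.810 to 0.912 between depletions over 104 bins.

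On 3 of 5 arms the scores were more widely spread after Su(var)3-9 RNAi than after HP1a RNAi. On chr2L the SD over bin pairs was 0.63 and 0.62 in the HP1a RNAi libraries and 0.77 and 0.81 in the Su(var)3-9 RNAi libraries, with the 5 mock RNAi and WT libraries between 0.39 and 0.46. On chr2R it was 0.57 and 0.50 against 0.76 and 0.66, and on chrX 0.72 and 0.62 against 0.86 and 0.80. The groups did not overlap on these 3 arms, and they overlapped on chr3L and chr3R. The spread over the 406 bins with at least 20 bin pairs followed the same order, with SDs of 0.28 and 0.25 after HP1a RNAi, 0.38 and 0.37 after Su(var)3-9 RNAi and 0.17 to 0.19 in the controls. An exact two-sided permutation test of 2 libraries against 2 cannot give a p below 0.33, which holds for every comparison of single values below.

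**Figure D1:**
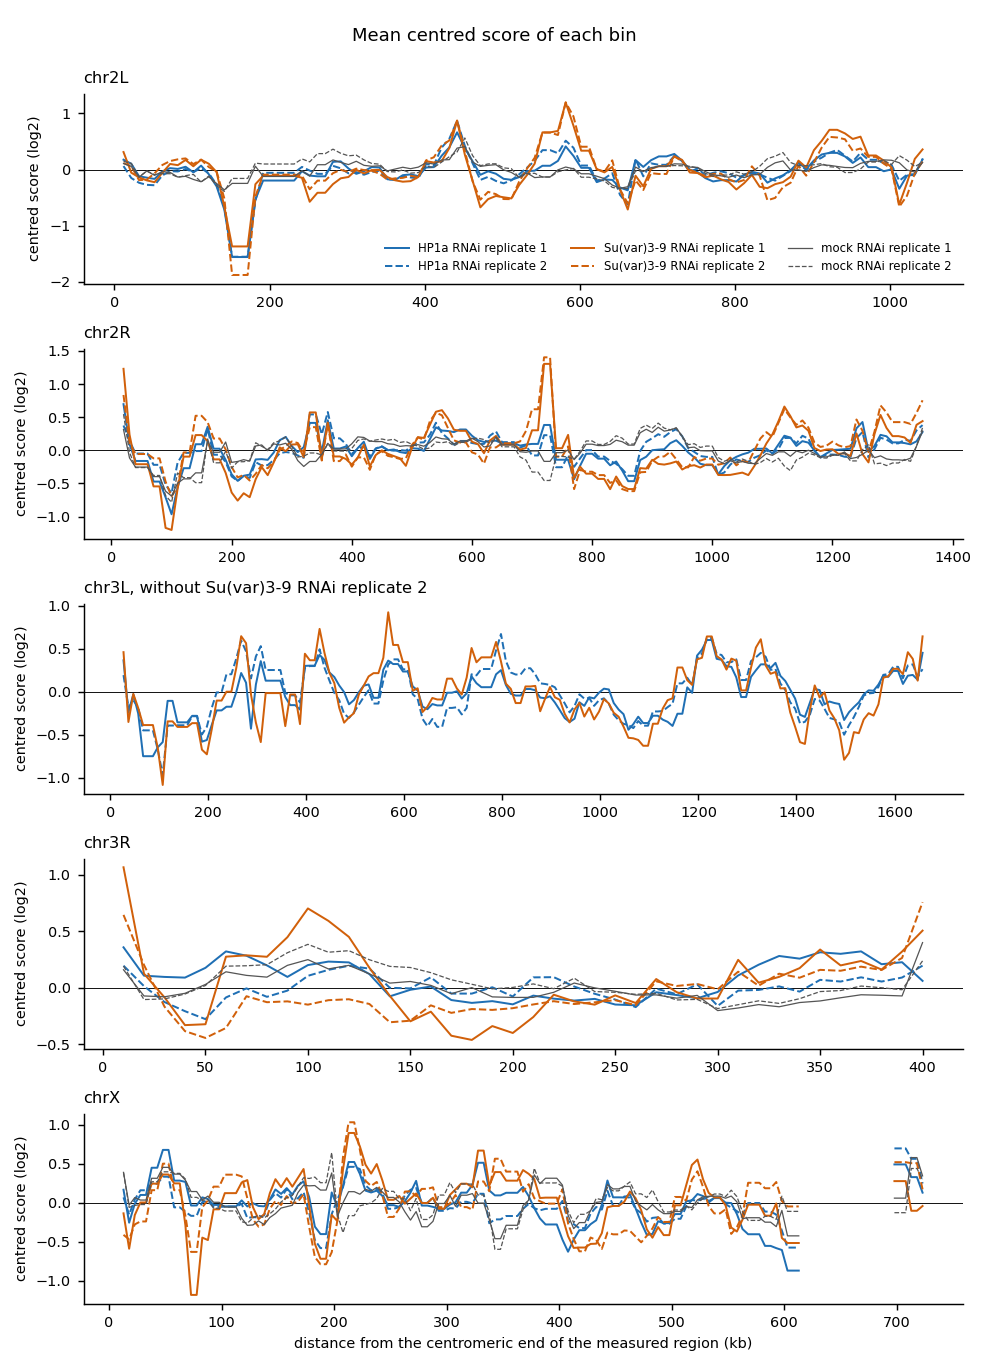
Mean centred score (log2, y axis) of each bin against its distance from the centromeric end of the measured region (kb, x axis), 1 panel per arm, with HP1a RNAi in blue, Su(var)3-9 RNAi in orange and mock RNAi in grey, and solid and dashed lines for replicates 1 and 2. The panel for chr3L leaves out Su(var)3-9 RNAi replicate 2 and mock RNAi. The 4 depleted libraries share the deep low on chr2L at 152 to 172 kb, and the Su(var)3-9 RNAi libraries alone reach 1.30 and 1.40 on chr2R at 720 kb.

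No single bin pair passed the test across all bin pairs. limma with Benjamini-Hochberg adjustment called 0 of 23488 bin pairs higher in HP1a RNAi (0% of those tested) and 0 higher in Su(var)3-9 RNAi (0%), with a smallest adjusted p of 0.206. At an unadjusted p under 0.05 there were 2707 bin pairs, 1262 higher in HP1a RNAi and 1445 higher in Su(var)3-9 RNAi. Both libraries of a group lay above both of the other in 5208 bin pairs with HP1a RNAi higher (22.2%) and in 5287 with Su(var)3-9 RNAi higher (22.5%). The median difference was 0.01, and its SD of 0.53 compares with a replicate SD of 0.35 in HP1a RNAi and 0.49 in Su(var)3-9 RNAi. With the mock RNAi libraries added to the fit for the spread, limma called 22 bin pairs higher in HP1a RNAi and 0 higher in Su(var)3-9 RNAi, and with mock RNAi and WT 321 and 242.

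Single bins did not pass the test either. limma called 0 of 568 bins higher in HP1a RNAi (0%) and 0 higher in Su(var)3-9 RNAi (0%), with a smallest adjusted p of 0.117. At an unadjusted p under 0.05 there were 77 bins, 38 higher in HP1a RNAi and 39 higher in Su(var)3-9 RNAi. Groups did not overlap in 133 bins with HP1a RNAi higher (23.4%) and in 128 with Su(var)3-9 RNAi higher (22.5%). The first share was 22.0% on chrX, 27.5% on chr3R, 13.5% on chr3L, 30.6% on chr2R and 29.8% on chr2L, and the second 29.1%, 20%, 7.98%, 28.4% and 30.8% in the same order. With the thin chr3L bins out of the fit (chr3L left out, or bins with at least 20 bin pairs), limma called 3 bins higher in Su(var)3-9 RNAi and 0 higher in HP1a RNAi, namely the bins on chr2R and chr2L described next.

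The clearest difference between the depletions was a pair of neighbouring bins on chr2R, from 739746 to 759746, about 720 kb from the centromeric end. They had the same values in every library because of smoothing, and they hold 2 matrix-associated regions (MARs, sites where DNA stays bound to the nuclear matrix) of the study's list in the first bin. Their mean centred score was 0.38 and 0.23 in HP1a RNAi against 1.30 and 1.40 in Su(var)3-9 RNAi. Mock RNAi gave -0.17 and -0.46, and WT gave 0.11, 0.23 and 0.01. The Su(var)3-9 RNAi libraries lay far above all others, and the HP1a RNAi libraries lay above mock RNAi and overlapped WT. The difference, HP1a RNAi minus Su(var)3-9 RNAi, was -1.05 ± 0.10 (SE), with an adjusted p of 0.117 in limma over all bins and 0.0113 over bins with at least 20 bin pairs. Of the 129 bin pairs of the first bin, 114 (88.4%) had both Su(var)3-9 RNAi libraries above both HP1a RNAi libraries and 0 the reverse. Over all bin pairs these shares were 22.5% and 22.2%. The bin was picked for its large difference, so its share is no separate support, and its bin pairs held 84 distinct sets of values.

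The groups were apart at this locus in all 5 distance bands. For partners 100 to 200 kb away, the 20 bin pairs averaged 0.39 and 0.51 in HP1a RNAi against 1.83 and 1.74 in Su(var)3-9 RNAi. For partners 400 to 800 kb away, the 52 bin pairs averaged 0.61 and 0.35 against 1.35 and 1.26, while mock RNAi was at -0.36 and -0.65. All 4 depleted libraries lay above mock RNAi and WT for these long-range partners, those of Su(var)3-9 RNAi furthest. Nearer by it was otherwise. At 100 to 200 kb HP1a RNAi lay among the controls, and at 50 to 100 kb the values were -0.60 and -0.53 in HP1a RNAi against 0.67 and 0.92 in Su(var)3-9 RNAi, with WT from -1.03 to 0.76.

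A second locus of this kind lay on chr2L, from 22386057 to 22396057, 582 kb from the centromeric end and with 1 MAR. Its mean centred score was 0.41 and 0.52 in HP1a RNAi against 1.19 and 1.2 in Su(var)3-9 RNAi. The controls ran from -0.01 in mock RNAi replicate 2 to 0.23 in WT replicate 2. All 4 depleted libraries therefore lay above all 5 controls, and the Su(var)3-9 RNAi libraries lay above those of HP1a RNAi in 93 of the 100 bin pairs. That share was 22.5% over all bin pairs, and this bin too was picked for its large difference. The difference was -0.73 ± 0.09 (SE), with an adjusted p of 0.182 in limma over all bins and 0.0232 over bins with at least 20 bin pairs. In the scores as deposited, without centring, the sign turned, to 0.33, with the low chr2L median of Su(var)3-9 RNAi replicate 2 left in.

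Among bins with at least 20 bin pairs, those with lower contacts after Su(var)3-9 RNAi were led by chrX from 22319812 to 22324812, 78 kb from the centromeric end. The values were -0.04 and -0.17 in HP1a RNAi against -1.18 and -0.63 in Su(var)3-9 RNAi. The controls ran from -0.31 to 0.14, so HP1a RNAi lay among them and Su(var)3-9 RNAi below. The difference was 0.80 ± 0.21 (SE; limma, adjusted p 0.266), and of 120 bin pairs 51 (42.5%) had HP1a RNAi higher without overlap and 4 (3.33%) Su(var)3-9 RNAi, beside 22.2% and 22.5% of all bin pairs. Next came chr2L from 22496057 to 22506057, with -0.09 and -0.18 in HP1a RNAi, -0.67 and -0.53 in Su(var)3-9 RNAi and 0.02 to 0.09 in the controls (difference 0.47 ± 0.10 SE, adjusted p 0.266).

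The other bins with large differences were smaller in effect or rested on few bin pairs. Higher in HP1a RNAi were chrX 21954812, chr2R 969746 and chr2L 22716057, with differences of 0.44, 0.41 and 0.40. Higher in Su(var)3-9 RNAi were chrX 22049812, 21804812 and 22179812, with differences of -0.54, -0.49 and -0.47. The 6 chr3L bins named by size (24156370, 24176370 and 23036370 with HP1a RNAi higher, 24436370, 24286370 and 24306370 with Su(var)3-9 RNAi higher) had 8 bin pairs each and differences from -1.25 to 1.06. Without Su(var)3-9 RNAi replicate 2, 24176370, 24436370 and 24306370 changed sign, the differences of the 6 bins ran from -0.09 to 0.40, and none of these 6 bins was called by limma in either fit.

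**Figure D2:**
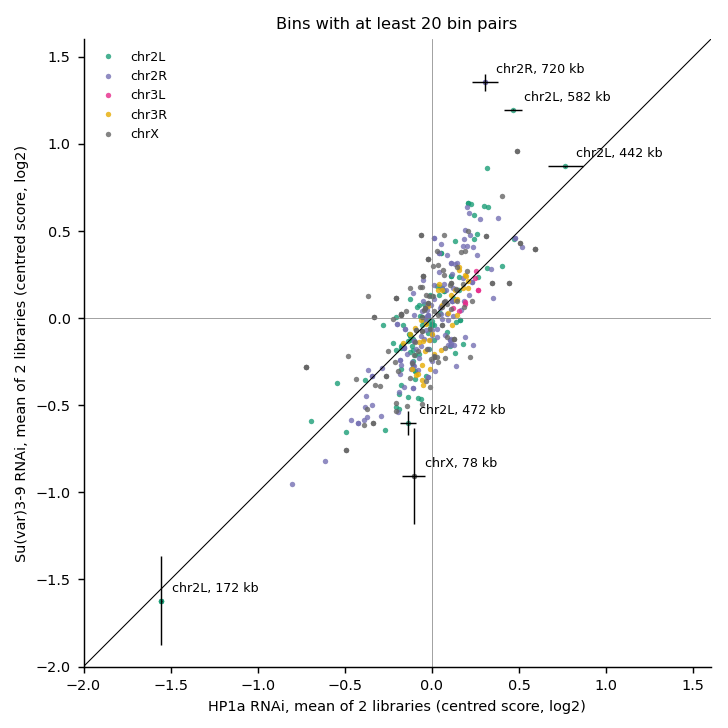
Mean of the 2 Su(var)3-9 RNAi libraries (y axis) against the mean of the 2 HP1a RNAi libraries (x axis) for the 406 bins with at least 20 bin pairs, in centred log2 scores, coloured by arm; black bars on the labelled bins span the 2 replicates and the diagonal marks equal values. The chr2R bin at 720 kb and the chr2L bin at 582 kb lie above the line, chrX at 78 kb below it, and the chr2L bin at 172 kb near it at -1.55 and -1.62.

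The lowest bins in both depletions lay at light on chr2L. The light gene (lt), which encodes a subunit of a complex that tethers vesicles to lysosomes, is a long-known case of a gene that needs its heterochromatic setting for normal expression. The bin from 22816057 to 22826057, 98 bin pairs, had -1.56 and -1.55 in HP1a RNAi against -1.37 and -1.88 in Su(var)3-9 RNAi. Mock RNAi gave -0.25 and -0.16, and WT -0.49, -0.39 and -0.20. All 4 depleted libraries lay far below the lowest control, and HP1a RNAi lay inside the range of Su(var)3-9 RNAi. The difference between the depletions was 0.07 ± 0.19 (SE; limma, adjusted p 0.912). The bins 22796057 and 22806057 before it had the same means over all their bin pairs. Of the 98 bin pairs, 23 (23.5%) had HP1a RNAi higher without overlap and 18 (18.4%) Su(var)3-9 RNAi, beside 22.2% and 22.5% of all bin pairs.

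HP1a RNAi lay furthest from the controls for near partners of light, and Su(var)3-9 RNAi for partners 200 to 400 kb away. For partners under 50 kb away, 6 bin pairs averaged -1.12 and -1.59 in HP1a RNAi against -0.89 and -1.06 in Su(var)3-9 RNAi. The same pairs averaged 1.26 and 0.99 in mock RNAi and 0.57 to 0.82 in WT. HP1a RNAi was the lower there without overlap, and again at 800 kb and over, where 9 bin pairs averaged -2.62 and -1.52 against -0.999 and -1.44. The controls at 800 kb and over ran from -1.25 to -0.37, so Su(var)3-9 RNAi replicate 1 lay among them. At bin 22796057 the groups overlapped under 50 kb, with -0.16 and -1.09 in HP1a RNAi against -0.54 and -1.14 in Su(var)3-9 RNAi. At 200 to 400 kb HP1a RNAi was the higher, where 20 bin pairs averaged -1.59 and -1.77 against -2.51 and -2.90 in Su(var)3-9 RNAi. The controls there ran from -0.76 to -0.12. The groups overlapped in the other 3 bands.

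Other lows and highs were also common to both depletions. On chr2R the bin from 229746 to 239746, inside Gprk1, a gene for a kinase of G protein-coupled receptors, had -0.46 and -0.46 in HP1a RNAi against -0.76 and -0.41 in Su(var)3-9 RNAi, below controls of -0.25 to -0.10. On chrX the bin from 22204812 to 22209812, with 1 MAR, had -0.40 and -0.58 in HP1a RNAi against -0.72 and -0.79 in Su(var)3-9 RNAi, below controls of -0.09 to 0.26. The chr2R bin from 119746 to 129746 was low in all libraries, with -0.96, -0.65, -1.2 and -0.70 in the depleted ones and -0.92 to -0.65 in the controls.

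Among bins with at least 20 bin pairs, shared highs were led by chr2L from 22526057 to 22536057. It had 0.66 and 0.87 in HP1a RNAi and 0.87 in both Su(var)3-9 RNAi libraries, above controls of 0.30 to 0.47. The difference of -0.11 ± 0.11 (SE) was within the spread of HP1a RNAi. Of its bin pairs, 38% had Su(var)3-9 RNAi higher without overlap and 10% HP1a RNAi, beside 22.5% and 22.2% of all bin pairs. Under 50 kb HP1a RNAi was the higher, with 0.43 and 1.39 against 0.39 and 0.06, and controls of 0.51 to 1.53. Su(var)3-9 RNAi was the higher at 50 to 100 kb (1.53 and 1.42 against 0.79 and 1.17) and at 100 to 200 kb. The groups overlapped in the farther bands. On chrX the bin from 22179812 to 22184812 had 0.52 and 0.46 in HP1a RNAi against 0.89 and 1.03 in Su(var)3-9 RNAi, against -0.17 to 0.37 in the controls. The chr2R bins 379746 and 349746 (the latter in Gprk1), had 0.45 and 0.58, and 0.41 and 0.54, in HP1a RNAi. In Su(var)3-9 RNAi they had 0.42 and 0.40, and 0.57 and 0.35. The chr3L bins 23976370, 23956370, 23346370 and 23746370 were also high in all 4 libraries, from 0.48 to 1.24, over 8 bin pairs each. Without Su(var)3-9 RNAi replicate 2, over 161 bin pairs, HP1a RNAi was lower than over the 8 bin pairs, with 0.36 and 0.31 at 23976370 and 0.32 and 0.38 at 23956370, and Su(var)3-9 RNAi replicate 1 had 0.92 and 0.54. At 23346370 the 3 libraries lay between 0.38 and 0.42, and at 23746370 between 0.25 and 0.67.

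**Figure D3:**
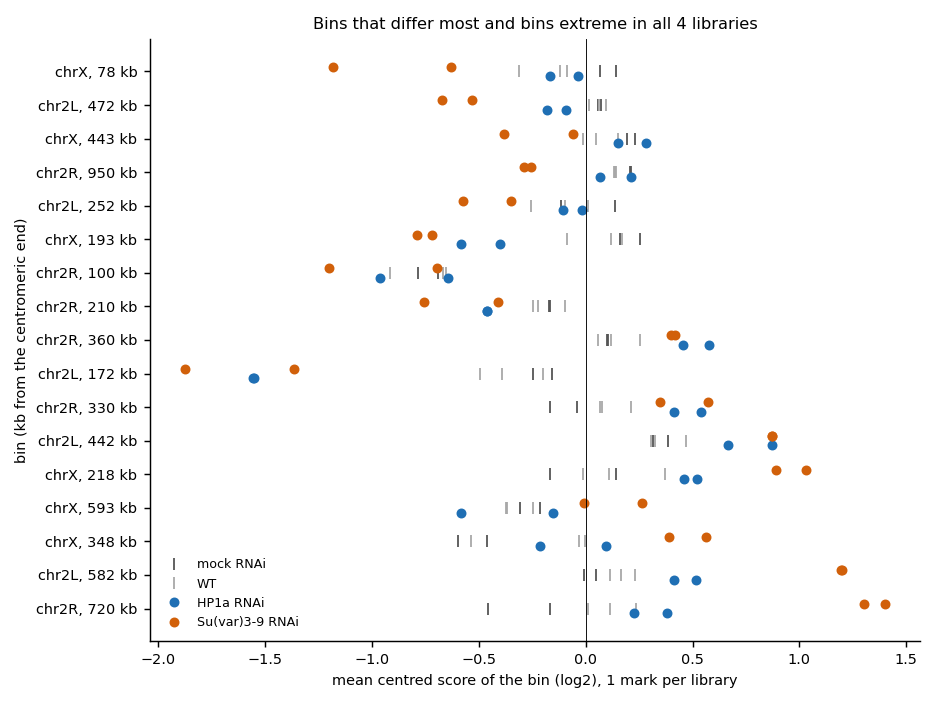
Mean centred score (log2, x axis) of the bins that differ most between the depletions and of those highest or lowest in all 4, for bins with at least 20 bin pairs; each blue dot is an HP1a RNAi library, each orange dot a Su(var)3-9 RNAi library, and grey ticks are mock RNAi and WT. Bins are ordered from HP1a RNAi higher (0.80, chrX at 78 kb) to Su(var)3-9 RNAi higher (-1.05, chr2R at 720 kb).

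Of 566 bins with a value in all 9 libraries, all 4 depleted libraries lay above all 5 controls in 65 (11.5%) and below them in 84 (14.8%). On chr2L the bins below outnumbered those above, with 29.4% against 10.8% of its bins. The shares above and below were 17.2% and 21.6% on chr2R, 9.45% and 14.2% on chrX, 10.0% each on chr3R and 9.20% and 1.84% on chr3L. In 87 of these 149 bins (58.4%) the libraries of Su(var)3-9 RNAi did not overlap those of HP1a RNAi, beside 46% of all 568 bins in either direction. The difference between these shares was not tested.

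Contacts across a bin gave the calls that passed the test. For each bin, local insulation was measured as the mean centred score of bin pairs that span it, with both ends within 100 kb. A high value means more contact across the bin relative to the expected frequency. limma called 10 of 423 bins higher in HP1a RNAi (2.36%) and 0 higher in Su(var)3-9 RNAi (0%). At an unadjusted p under 0.05 there were 61 and 23 bins. Groups did not overlap in 121 bins with HP1a RNAi higher (28.6%) and in 91 with Su(var)3-9 RNAi higher (21.5%), and on chr2R these were 53 and 40 of 129. With the window set to 200 kb, 0 bins were called in either direction, and at 50 kb 6 and 8.

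Of the called bins, 7 formed 1 run on chr2R, from 869746 to 939746, with 3 MARs. The bin from 889746 to 899746, 100 spanning bin pairs, had 0.09 and 0.40 in HP1a RNAi against -0.49 and -0.51 in Su(var)3-9 RNAi. Mock RNAi gave 0.75 and 0.81, and WT 0.43, 0.34 and 0.66. Contacts across this run were thus highest in mock RNAi, lower in HP1a RNAi and lowest in Su(var)3-9 RNAi, whose libraries lay below all others in each of the 7 bins. HP1a RNAi overlapped WT at 869746, 879746 and 889746, where its replicate 2 lay above WT replicate 2, and lay below WT in the other bins. The difference was 0.74 ± 0.15 (SE; limma, adjusted p 0.00824), and over the 7 bins it ran from 0.56 to 0.74, with adjusted p from 0.00824 to 0.0461. Neighbouring bins share most of their spanning pairs, so the run is 1 observation. With the mean at each distance subtracted in place of the median, the difference at 889746 was 0.64 with an adjusted p of 0.113. Without HP1a RNAi replicate 2 it was 0.59 with an adjusted p of 0.291, and without Su(var)3-9 RNAi replicate 2 it was 0.73 with 0.0624.

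The other 3 called bins lay at the distal edge of the chrX region, 21679812, 21684812 and 21689812, spanned by 4, 8 and 12 bin pairs. At 21679812 the values were 2.33 and 1.88 in HP1a RNAi against -0.20 and -0.14 in Su(var)3-9 RNAi, with mock RNAi at 0.80 and 0.89 and WT from 0.72 to 1.2. HP1a RNAi lay above the controls and Su(var)3-9 RNAi below them. The difference was 2.27 ± 0.16 (SE; limma, adjusted p 9.67e-09). That SE borrows the spread of bins with far more spanning pairs, and this value equals that of a single bin pair, 21674812 with 21679812, whose own adjusted p was 0.2955. With missing scores kept as 0 the differences of these 3 bins changed sign, to -0.39, -0.35 and -0.37. Restricted to bins spanned by at least 20 bin pairs, limma called 7 bins, those of the chr2R run.

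**Figure D4:**
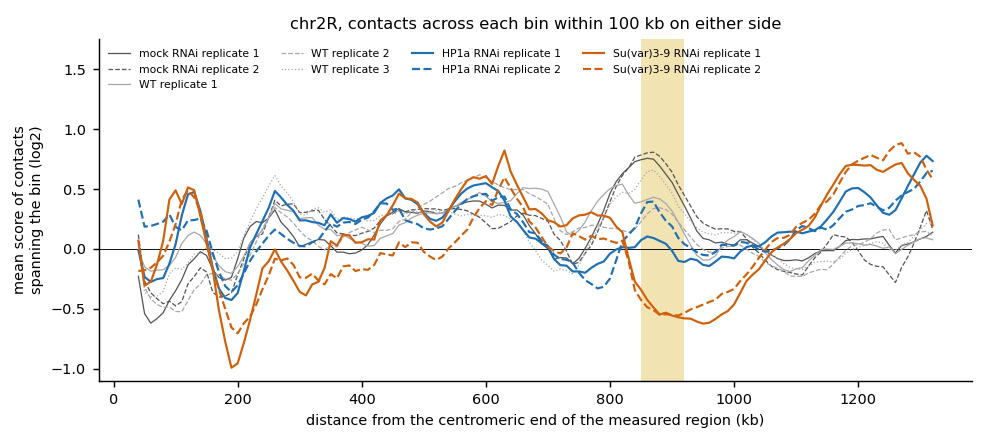
Mean centred score of contacts spanning each bin of chr2R within 100 kb on either side (log2, y axis) against the distance from the centromeric end (kb, x axis), 1 line per library, with the run of 7 called bins shaded. In the shaded run Su(var)3-9 RNAi lies between -0.57 and -0.34, HP1a RNAi between -0.10 and 0.40, WT between 0.22 and 0.66 and mock RNAi between 0.45 and 0.81.

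Other bins with large differences in spanning contacts did not pass. On chr2R at 239746, in Gprk1, the values were 0.01 and -0.10 in HP1a RNAi against -0.59 and -0.56 in Su(var)3-9 RNAi (difference 0.53 ± 0.14 SE, adjusted p 0.0545 in limma). Higher in Su(var)3-9 RNAi were chr2L at 22436057, in CG17490, with 0.09 and 0.27 against 0.58 and 0.79, and chr2R at 789746 and 1269746, with differences of -0.43 each (adjusted p 0.0863, 0.107 and 0.106).

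Of the single bin pairs with the smallest p in each direction, several involved the loci above. chrX 21679812 with 22319812, 640 kb apart, had 0.84 and 1.15 in HP1a RNAi against -1.76 and -1.71 in Su(var)3-9 RNAi, a difference of 2.73 ± 0.25 (SE; limma, adjusted p 0.206). chr2L 22526057 with 22796057, which joins the shared high bin to the low bin next to light, had -0.96 and -0.90 against -3.31 and -3.37, with controls of -1.03 to -0.22. HP1a RNAi lay within the range of the controls there, and Su(var)3-9 RNAi far below it. The remaining pairs higher in HP1a RNAi were on chrX, 21674812 with 21679812, 21959812 with 21969812 and 21844812 with 22319812, with differences of 2.27, 2.21 and 2.10.

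Pairs higher in Su(var)3-9 RNAi were of 2 kinds. In some, Su(var)3-9 RNAi lay above the controls. chr2R 739746 with 899746, 160 kb apart, had 0.25 and -0.47 in HP1a RNAi against 2.17 and 2.58 in Su(var)3-9 RNAi, against 0.15 to 1.58 in the controls. chr2R 739746 with 959746 had 0.25 and -0.47 against 1.83 and 2.33, with controls of -0.09 to 0.68. chrX 21879812 with 22049812 had -1.27 and -0.80 against 1.29 and 1.14, with controls of -1.02 to 0.12. In the other kind HP1a RNAi lay below them. chr2L 22656057 with 22796057 had -0.57 and -1.83 in HP1a RNAi, and its 1.07 and 0.92 in Su(var)3-9 RNAi lay among controls of 0.87 to 1.34. chrX 21974812 with 22334812 had -1.20 and -1.57 in HP1a RNAi against 1.95 and 0.42 in Su(var)3-9 RNAi, with controls of -0.41 to 1.01. All 10 named pairs had an adjusted p from 0.206 to 0.322 in limma.

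By distance, HP1a RNAi was higher without overlap below 50 kb on 4 of 5 arms. Of 27 values of arm by distance band, the groups did not overlap in 9 with HP1a RNAi higher and in 2 with Su(var)3-9 RNAi higher, none of which the exact test can call. Under 50 kb on chr2L, the mean centred score was 0.39 and 0.27 in HP1a RNAi against 0.04 and 0.19 in Su(var)3-9 RNAi, all below the 0.45 to 0.63 of the controls. On chr2R it was 0.23 and 0.09 against -0.15 and 0.03, with the controls at 0.22 to 0.28. On chr3R it was 0.59 and 0.18 against 0.10 and 0.08, and on chr3L, over 32 bin pairs, 1.06 and 0.85 against 0.57 and 0.33. Without Su(var)3-9 RNAi replicate 2, over 629 chr3L bin pairs, it was 0.44 and 0.21 in HP1a RNAi and 0.09 in Su(var)3-9 RNAi replicate 1, while the chr3L band from 400 to 800 kb turned, with -0.09 and -0.03 against -0.02. On chrX the groups overlapped, with 0.42 and 0.17 against 0.27 and 0.13.

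Farther bands separated the depletions on fewer arms. HP1a RNAi was higher on chr2L from 200 to 400 kb (-0.04 and -0.0041 against -0.10 and -0.06) and on chr3L from 400 to 800 kb (0.14 and 0.25 against 0.09 and 0.02). On chr2R HP1a RNAi was higher without overlap from 50 to 100 kb (0.17 and 0.13 against 0.12 and 0.05) and from 100 to 200 kb (0.12 and 0.12 against 0.04 and -0.04). On chr3R it was higher from 50 to 100 kb (-0.03 and 0.00 against -0.12 and -0.16). Su(var)3-9 RNAi was higher on chr2L at 800 kb and over (-0.35 and -0.18 against -0.05 and -0.10) and on chrX from 200 to 400 kb (-0.12 and -0.10 against -0.02 and 0.02). On chr2L all 4 depleted libraries lay below all 5 controls in the bands under 50, 50 to 100 and 100 to 200 kb. The split of 9 and 2 was 22 and 0 in scores as deposited and 7 and 11 with zeros kept as values.

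The slope of the centred score on log2 distance was less steep in Su(var)3-9 RNAi on 3 arms. On chr2R it was -0.08 and -0.05 in HP1a RNAi against -0.03 and 0.01 in Su(var)3-9 RNAi, with the controls at -0.10 to -0.07. On chr3R it was -0.15 and -0.08 against 0.03 and -0.04, and on chr3L -0.14 and -0.03 against -0.0063 and -0.0047 (-0.12 and -0.04 against -0.03 without Su(var)3-9 RNAi replicate 2). The groups overlapped on chr2L and chrX.

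**Figure D5:**
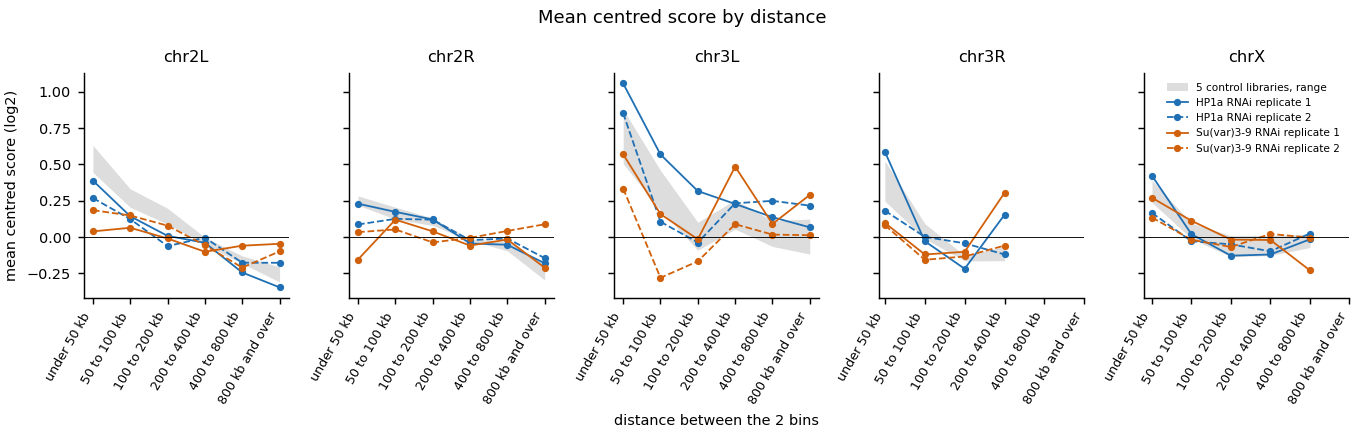
Mean centred score (log2, y axis) of bin pairs by distance band (x axis) for each arm, with HP1a RNAi in blue, Su(var)3-9 RNAi in orange, solid and dashed lines for replicates 1 and 2, and the range of the 5 mock RNAi and WT libraries in grey. Below 50 kb both HP1a RNAi libraries lie above both Su(var)3-9 RNAi libraries on chr2L, chr2R, chr3L and chr3R, but not on chrX.

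By position, the depletions were close when each arm was cut into 3 equal parts. In the part of chr2L nearest the centromere, which holds light, the mean centred score was -0.23 and -0.24 in HP1a RNAi and -0.23 in both Su(var)3-9 RNAi libraries, against -0.07 to 0.03 in the controls. Of 15 such parts, the groups did not overlap in 2, the middle of chr3L (0.24 and 0.25 in HP1a RNAi, 0.21 and 0.10 in Su(var)3-9 RNAi) and the middle of chr3R (-0.09 and -0.02 against -0.21 and -0.14). The first turned without Su(var)3-9 RNAi replicate 2, to -0.06 and -0.03 against -0.0291.

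Genes were read from the bins they overlap, using 24 pericentromeric genes that have dm3 positions in a list the study drew up from knockdown of another factor, dMES-4, so the list was not chosen on contacts. All 24 had tested bins. HP1a RNAi was higher without overlap in 4 (Clamp, conu, RpL38 and AGO3) and Su(var)3-9 RNAi in 5 (CG17018, RpL5, cta, beta-Man and l(1)G0196), with differences from -0.34 to 0.23. Of the 97 single bins with a listed gene, HP1a RNAi was higher without overlap in 14 (14.4%) and Su(var)3-9 RNAi in 26 (26.8%), beside 23.4% and 22.5% of all bins. The difference between these shares was not tested. The median difference was -0.02 over the genes and 0.02 over all bins. limma called no bin of these genes.

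Genes of the light region behaved unlike one another. lt, from 22817527 to 22835867, had -1.13 and -1.11 in HP1a RNAi against -1.02 and -1.2 in Su(var)3-9 RNAi over its 2 bins, against -0.45 to -0.27 in the controls. Its neighbour cta, from 22874548 to 22885683, encodes a G protein alpha subunit used in gastrulation. It had 0.00 and -0.02 in HP1a RNAi against 0.12 and 0.15 in Su(var)3-9 RNAi, against -0.21 to 0.01 in the controls. RpL5, a ribosomal protein gene of chr2L, had 0.03 and 0.25 against 0.38 and 0.44. RpL5 and beta-Man are set out because their values were among those apart.

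On chr2R the Nipped genes lay at or above the controls in both depletions. Nipped-A, from 1065470 to 1138527, encodes a large scaffold subunit of histone acetyltransferase complexes. It had -0.01 and -0.09 in HP1a RNAi against -0.08 and 0.06 in Su(var)3-9 RNAi over 8 bins, above controls of -0.17 to -0.13. Its bins were not all alike. At 1129746 the groups were apart, with 0.09 and 0.02 in HP1a RNAi against 0.44 and 0.41 in Su(var)3-9 RNAi. At 1099746 they overlapped, with 0.02 and -0.07 against -0.08 and 0.18. Nipped-B, from 579177 to 616522, encodes the cohesin loader, and had 0.30 and 0.16 against 0.40 and 0.25, with controls of 0.10 to 0.22. The Nipped-B groups overlapped each other, and HP1a RNAi overlapped the controls.

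Of the remaining genes set out by name, AGO3, a Piwi-family Argonaute gene of chr3L, had 0.10 and 0.11 in HP1a RNAi against 0.05 and -0.02 in Su(var)3-9 RNAi. RpL10 had 0.50 and -0.05 against 0.03 and 0.04. Both rest on bins with as few as 8 bin pairs. Without Su(var)3-9 RNAi replicate 2, over at least 161 bin pairs per bin, AGO3 had -0.14 and -0.04 in HP1a RNAi and -0.17 in Su(var)3-9 RNAi replicate 1, and RpL10 had -0.13 and -0.25 and -0.11. On chrX, fog, the gene of a secreted signal in gastrulation, had 0.16 and 0.09 against 0.27 and 0.02, and Usp2, a ubiquitin protease gene, had 0.06 and 0.04 against 0.14 and -0.03. On chr3R, beta-Man, a lysosomal mannosidase gene, had 0.23 and 0.10 against 0.60 and 0.42, with controls of -0.04 to 0.04, and 1 of its 2 bins rests on 3 bin pairs.

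Bins with a MAR were read in the same way. Of 142 bins that overlap 1 of the 161 listed MARs, 23 (16.2%) had HP1a RNAi higher without overlap and 38 (26.8%) had Su(var)3-9 RNAi higher, beside 23.4% and 22.5% of all bins. Bins with a listed gene had similar shares, 14.4% and 26.8%. The median difference was -0.01, beside 0.02 over all bins. The difference between these shares was not tested, and the bins share smoothed values.

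chr3L can be read over nearly its whole length only without Su(var)3-9 RNAi replicate 2. With both HP1a RNAi libraries and the other Su(var)3-9 RNAi library, 13049 chr3L bin pairs had a score. Over 164 bins, r was 0.83 between the HP1a RNAi replicates and 0.79 and 0.82 between each of them and Su(var)3-9 RNAi replicate 1. Over the 13049 bin pairs these values were 0.63 and 0.47 and 0.54, so there the depletions were less alike than the HP1a RNAi replicates. limma then assumes that the lone library varies like the HP1a RNAi replicates, so only differences are given here. The chr3L bin with the largest difference, from 24236370 to 24246370 and 160 bin pairs, had 0.36 and 0.53 in HP1a RNAi. Su(var)3-9 RNAi replicate 1 had -0.59 there, a difference of 1.03. Contacts across the chr3L bins 24276370, 24286370 and 24386370, picked by this fit, were higher in HP1a RNAi, with differences of 0.85, 0.79 and 0.86.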

How the data were processed

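The authors deposited log2 observed over expected interaction scores for bin pairs of 1 arm, per library. Per the paper, reads were handled with fastx_toolkit, mapped with Bowtie2 and binned and smoothed by the median with HiTC and my5C in dm3. Versions of these tools are not given in the sources used here. Samples were grouped by the RNAi label. Each pair of different bins was used once, scores of 0 were treated as missing and the median of each library and arm was subtracted. Smoothing lets neighbouring bins share fragments, so bin pairs are not independent. Bin pairs, bins and contacts across bins were tested with limma 3.58.1 (R 4.3.3) over the features with a value in all 4 libraries, Benjamini-Hochberg adjusted, threshold 0.05; distance bands, 3 positions per arm and slopes had exact permutation tests (scipy 1.17.1). limma was tested on simulated scores. Members and lists were chosen with earlier results of these data known. Named were, per direction, 5 bin pairs by smallest adjusted p (merged within 20 kb), the 5 bins with the largest difference, the 3 bins with the largest difference in spanning contacts (50 kb apart), the 5 bins highest and lowest in all 4 libraries and 8 genes. Where chr3L bins filled these places, the next bins with at least 20 bin pairs were added after their values were seen. Alternatives covered centring, scaling, distance, zeros, close pairs, libraries in the fit, empirical Bayes settings, the replicate block, chr3L and leaving out each library. The restriction to bins with at least 20 bin pairs in the fits was added after the data were seen. Gene and MAR positions in dm3 came from lists of the study; Python 3.11.15, numpy 2.4.6, pandas 2.3.3 and matplotlib 3.10.9 were used.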

Additional observations from a re-analysis of the deposited data

Results flagged for a closer look

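The 10 bins below stood out because contacts across them differed between Su(var)3-9 RNAi and HP1a RNAi in limma's test of that difference itself (adjusted p under 0.05, 423 bins tested). On chr2R, HP1a RNAi was higher by 0.57 at 869746, 0.70 at 879746, 0.74 at 889746, 0.74 at 899746, 0.68 at 909746, 0.64 at 919746 and 0.56 at 929746. On chrX, HP1a RNAi was higher by 2.27 at 21679812, 1.64 at 21684812 and 1.02 at 21689812, spanned by 4, 8 and 12 bin pairs.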

How the results depend on the processing

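Counts are given with HP1a RNAi higher first and Su(var)3-9 RNAi higher second. For bin pairs (0 and 0), the counts were 22 and 0 with mock RNAi libraries in the fit and 321 and 242 with mock RNAi and WT. Leaving out 1 library gave 0 to 254 and 0 to 195, both highest without Su(var)3-9 RNAi replicate 2. For bins (0 and 0), they were 22 and 25 with mock RNAi and WT in the fit. They were 0 and 3 with mock RNAi in the fit, with chr3L left out and with bins of at least 20 bin pairs, and 0 to 3 and 0 to 3 on leaving out 1 library, both 3 without Su(var)3-9 RNAi replicate 2.

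For contacts across bins (10 and 0), the counts were 6 and 8 with a window of 50 kb, 0 and 0 with 200 kb, 2 and 0 in scores as deposited, 2 and 0 after division by the median absolute deviation, 2 and 0 with the mean at each distance subtracted and 0 and 0 with zeros kept. They were 19 and 1 with mock RNAi in the fit, 26 and 3 with mock RNAi and WT, and 43 and 7 with a trended, robust prior. Leaving out 1 library gave 3 to 7 and 0 to 7, with 3 and 0 without HP1a RNAi replicate 2, 5 and 7 without Su(var)3-9 RNAi replicate 1 and 6 and 0 without HP1a RNAi replicate 1. The chr2R bin 889746 kept its sign in every setting tried. Its adjusted p was 0.0567 with a window of 50 kb, 0.5 with 200 kb, 0.348 as deposited, 0.123 after division and 0.272 with zeros kept.

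For distance bands (9 and 2), the counts were 22 and 0 as deposited, 16 and 0 with the mean at each distance subtracted, 6 and 5 centred on shared bin pairs, 10 and 4 after division, 7 and 11 with zeros kept and 10 and 4 with medians. Leaving out 1 library gave 11 to 15 and 5 to 7. For position (2 and 0), they were 11 and 0 as deposited, 1 and 0 centred on shared bin pairs, 3 and 1 after division, 4 and 1 with the mean at each distance subtracted, 0 and 7 with zeros kept, 0 and 1 with medians and 2 and 1 without bin pairs under 20 kb. Leaving out 1 library gave 3 to 7 and 2 to 5. For slopes (0 and 3), they were 1 and 0 with the mean at each distance subtracted, 1 and 3 with medians, 0 and 5 with zeros kept, and 0 to 0 and 3 to 5 on leaving out 1 library. Subtracting the mean at each distance largely removes band means and slopes by construction. Its counts for bands and slopes therefore cannot test those results.

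Some named differences changed sign. As deposited, they were 0.33 at chr2L 22386057, 0.56 across chr2L 22436057, 0.18 across chr2R 789746, 0.18 across chr2R 1269746, 0.87 at 800 kb and over on chr2L and 0.56 at 200 to 400 kb on chrX. With zeros kept, they were -0.072 at chr3L 24176370, 0.037 at 24286370 and 0.0043 at 24306370, -0.39, -0.35 and -0.37 across chrX 21679812, 21684812 and 21689812, -0.0033 at 200 to 400 kb on chr2L, -0.044 at 400 to 800 kb on chr3L, -0.027 at 50 to 100 kb on chr3R and -0.032 in the middle of chr3L. Leaving out 1 library, the range was -0.067 to 0.74 at chr3L 24176370, -1.32 to 0.31 at 24436370, -0.59 to 0.014 at 24306370, -0.042 to 0.20 at 400 to 800 kb on chr3L and -0.016 to 0.14 in its middle, each sign turning without Su(var)3-9 RNAi replicate 2. Centred on shared bin pairs, the middle of chr3L was at -0.0035. With the mean at each distance subtracted, they were 0.023 at 800 kb and over on chr2L, 0.0030 at 200 to 400 kb on chrX, and 0.0034 and 0.0061 for the slopes of chr2R and chr3R. That setting largely removes differences by distance by construction, so the signs of these bands and slopes cannot be read. For the other sign changes, the cause was not tested.

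The labels name no batch or day, so whether the replicate numbers pair the samples is not known. The correlation of replicate differences between Su(var)3-9 RNAi and HP1a RNAi was 0.117 over 23488 bin pairs. With mock RNAi it was -0.014 for HP1a RNAi and -0.028 for Su(var)3-9 RNAi. With the replicate block, the counts were 35 and 24 for bin pairs, 0 and 0 for bins, 64 and 24 for contacts across bins, 9 and 2 for bands, 2 and 0 for position and 0 and 3 for slopes. Depth is unknown from the scores. What limits these results is 2 libraries per depletion and, on chr3L, the missing scores of Su(var)3-9 RNAi replicate 2.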
